A study of Rattus norvegicus with 20 samples.

Results

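The enzymes described here are 10 cytochromes P450 of the rat CYP2 and CYP3 families in nasal epithelium: Cyp2g1, Cyp2a3, Cyp2f4, Cyp2b21, Cyp2e1, Cyp2j4, Cyp2s1, Cyp2t1, Cyp3a9 and Cyp3a18. They were taken by name: a probe set, the group of short array probes that reads 1 transcript, was a member if its annotation gave 1 of these symbols and no other. Each gene had 1 such probe set, so 10 probe sets of 31042 tested, and 10 genes of 14217 named, are members. The rats, adult Sprague-Dawley animals of an outbred stock, were untreated and had no disease or genetic modification, and the study measured normal gene expression in 2 tissues of their noses. Respiratory epithelium lines the front and lower nasal passages, and olfactory epithelium carries the odour-sensing neurons. There were 12 arrays from males, 6 for each tissue, and 8 from females, 2 olfactory and 6 respiratory. They came from 13 rats aged 11, 13 or 14 weeks and killed by an overdose of ketamine. Of these, 7 rats (5 males and 2 females) gave both tissues. Tissue was collected by hand from the nasal passages and the bony turbinates into a preservative, so a sample may hold more than 1 kind of epithelium.

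Cytochromes P450 are heme enzymes of the endoplasmic reticulum that insert oxygen into lipid-soluble compounds, with electrons passed on by the reductase Por and, in part, by cytochrome b5. The nose is among the tissues outside the liver that are richest in them, above all in the sustentacular cells and Bowman's glands of the olfactory mucosa. There they are known to clear odorants and inhaled chemicals, and to turn some of these into toxic products.

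Among males, 6 members were higher in olfactory epithelium (Cyp2b21, Cyp3a9, Cyp2j4, Cyp2g1, Cyp2e1 and Cyp3a18), 2 were lower (Cyp2s1 and Cyp2t1), and 2 were not called (Cyp2a3 and Cyp2f4). The 2 that were not called had strong signals in both tissues. A gene was called when its adjusted p, from limma with Benjamini-Hochberg adjustment over all 31042 probe sets, was under 0.05. Of all probe sets, 25.2% were called between the male tissues, 11.6% higher and 13.6% lower in olfactory epithelium. The median difference over all probe sets was -0.04 on the log2 scale, against differences of -2.01 to 3.03 for the members. The male arrays of the 2 tissues did not overlap in signal for 7 members, against 13.4% of all probe sets. As these genes were chosen with earlier results of the same arrays known, the shares describe them and are not independent evidence. Signals are linear array intensities, scaled by the authors to a common level, and tissue differences are means of log2(signal + 16), which understates changes of weak signals. The background of an array, the 95th percentile of its bacterial control probe sets that carry no rat target, lay between 28.2 and 64.9.

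**Figure D1:**
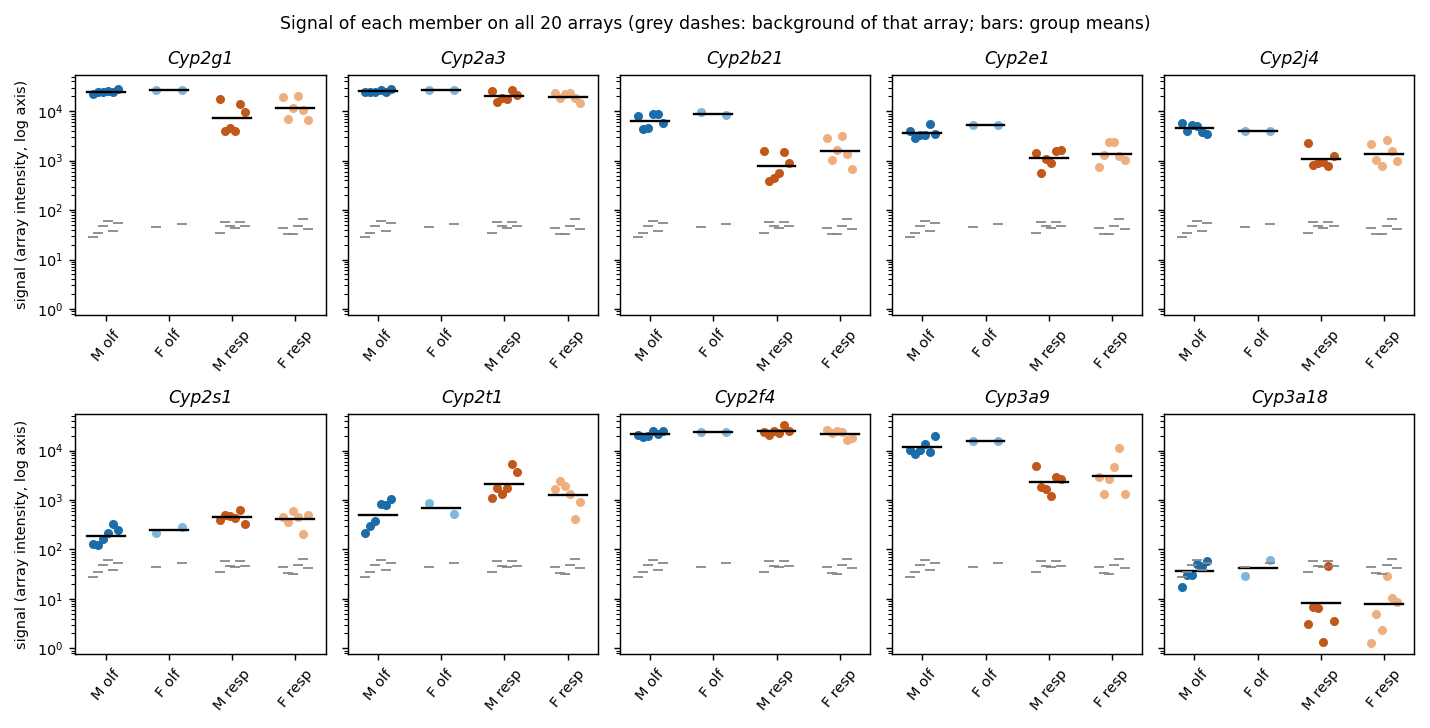
Signal of each member (log axis) on every array of the 4 groups, M and F standing for male and female, olf and resp for olfactory and respiratory. Black bars are back-transformed group means of log2(signal + 16), and grey dashes the background of each array. The signals of Cyp2a3 and Cyp2f4 are strong in both tissues, and those of Cyp3a18 lie at or under the dashes on all 12 respiratory arrays.

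In RefSeq's order of rat genes, 6 members lie in 1 stretch of chromosome 1 that holds 24 genes, 16 of them named as cytochromes P450. Cyp2s1 and Cyp2t1 are its ends, and Cyp2b21, Cyp2g1, Cyp2a3 and Cyp2f4 lie between them in that order, with other genes among them. Cyp2e1 lies elsewhere on chromosome 1, Cyp2j4 on chromosome 5, and Cyp3a9 and Cyp3a18 on chromosome 12. The sequences just before the annotated starts of 4 genes of the stretch are shown because these neighbours did not move together: Cyp2b21 and Cyp2g1 were higher in male olfactory epithelium, Cyp2a3 was not called, and Cyp2s1 was lower. Each is 220 bases long, ends 30 bases before the start that RefSeq gives in build GRCr8, and is written 5′ to 3′ on the strand of the gene. Capitals mark 3 motifs, each searched on both strands. The first, TTGGC, is the half-site of nuclear factor I, a family of factors known to act on the Cyp2a3 promoter in the nose. The second is the core promoter motif TATAAA, to which the general transcription machinery binds. The third is the CCAAT box, which can share letters with the first where they lie on opposite strands.
Cyp2b21, chr1:91042783-91043002, minus strand: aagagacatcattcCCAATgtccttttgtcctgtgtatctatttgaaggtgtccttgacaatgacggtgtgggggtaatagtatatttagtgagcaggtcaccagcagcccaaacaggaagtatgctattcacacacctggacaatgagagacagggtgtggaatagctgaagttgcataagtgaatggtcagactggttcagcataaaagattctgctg
Cyp2g1, chr1:91273059-91273278, plus strand: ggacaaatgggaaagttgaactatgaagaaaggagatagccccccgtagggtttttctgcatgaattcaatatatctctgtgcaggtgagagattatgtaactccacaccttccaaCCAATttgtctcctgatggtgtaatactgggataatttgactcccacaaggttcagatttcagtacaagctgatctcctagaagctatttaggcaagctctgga
Cyp2a3, chr1:91299334-91299553, plus strand: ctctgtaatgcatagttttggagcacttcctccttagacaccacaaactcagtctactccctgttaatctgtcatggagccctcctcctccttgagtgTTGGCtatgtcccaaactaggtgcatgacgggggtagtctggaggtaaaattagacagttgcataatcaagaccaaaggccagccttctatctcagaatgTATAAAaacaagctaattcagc
Cyp2s1, chr1:90453104-90453323, minus strand: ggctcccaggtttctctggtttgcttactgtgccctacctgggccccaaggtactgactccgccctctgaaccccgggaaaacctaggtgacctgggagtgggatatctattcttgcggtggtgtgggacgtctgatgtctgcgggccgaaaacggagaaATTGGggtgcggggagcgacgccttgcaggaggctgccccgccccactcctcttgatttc
Only the Cyp2a3 window of these 4 holds the TTGGC letters, 152 to 148 bases before the start, and the TATAAA letters, 52 to 47 bases before it. For Cyp2g1 and Cyp2a3, but not Cyp2b21 and Cyp2s1, the first 3 bases after the annotated start are ATG, the letters of a start codon. Whether these starts are those of transcription was not tested, so positions may not compare between the windows. The Cyp2s1 window is 60.5% G and C, against 44.1% for Cyp2b21, 42.3% for Cyp2g1 and 45.0% for Cyp2a3. Among windows not shown, Cyp2j4, higher in male olfactory epithelium, and Cyp2t1, lower there, both have 56.4%, and Cyp2f4, not called, has 54.1%. All 10 members had a window in the RefSeq table, and 5 of them (Cyp2a3, Cyp2e1, Cyp2j4, Cyp3a9 and Cyp3a18) held a nuclear factor I half-site on either strand, as did 36.8% of all 33469 windows of this length. The second motif was in 2 members (Cyp2a3 and Cyp2e1) and in 11.1% of all windows, and the third in 6 members and in 31.2% of all windows. The 30 bases next to the start were not searched in any window, so a motif there, TATAAA included, would be missed. These letters are matches in a short window and say nothing about binding.

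**Figure D2:**
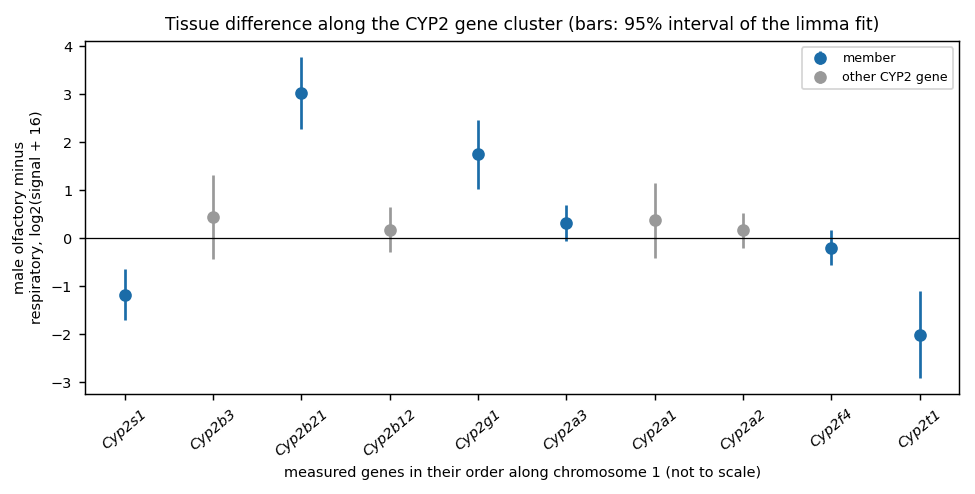
Male olfactory minus respiratory difference in log2(signal + 16), with its 95% interval, for the 10 measured genes of the chromosome 1 stretch in their order along it (not to scale). Cyp2s1 and Cyp2t1 at the ends lie below 0, Cyp2b21 and Cyp2g1 above it, and the intervals of the other 6 genes include 0.

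Cyp2b3, Cyp2b12, Cyp2a1 and Cyp2a2, the measured genes of the stretch that are no members, gave differences of 0.16 to 0.44 in males and none was called. Cyp2b12 and Cyp2a2 were at or under the background on all 20 arrays. Cyp2b3 was above it on 10 arrays and Cyp2a1 on 7. Close relatives in these families share much of their sequence, and whether a member's probes also took up RNA of a relative was not tested.

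Cyp2g1, Cyp2a3 and Cyp2f4 were far above background on every array. Cyp2g1 is a P450 known chiefly from the olfactory mucosa. Its signal in male olfactory epithelium was 22850 at the lowest, 24386 at the median and 28274 at the highest, and in the 2 female olfactory arrays 26720 and 26486. In male respiratory epithelium it was 3998 at the lowest, 6985 at the median and 17328 at the highest, and in female respiratory epithelium 6665, 11191 and 19909. Every olfactory array was thus above every respiratory array in Cyp2g1. The difference in males was 1.75 (SE 0.34, 95% interval 1.03 to 2.46, n = 6 and 6), or 3.35-fold, with an adjusted p of 0.000484 in limma. In females it was 1.22 (SE 0.49), with an adjusted p of 0.0864, and was not called. Respiratory arrays spread widely: their log2 values had an SD of 0.85 over 12 arrays, against 0.10 over the 8 olfactory arrays. Male rats 1 and 7, whose respiratory signals were 17328 and 13865, gave differences between their own tissues of 0.40 and 0.82, whereas rats 2, 3 and 4 gave 2.56, 2.42 and 2.69.

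Cyp2a3, an enzyme known to hydroxylate coumarin and to activate tobacco-specific nitrosamines, was strong in both tissues. Its signals were 24391, 24782 and 28410 (lowest, median and highest) in male olfactory and 15535, 20185 and 26348 in male respiratory epithelium. Those of females were 26928 and 27426 in olfactory and 14489, 20504 and 23676 in respiratory epithelium. The male ranges overlapped, and the difference of 0.32 (SE 0.18, 95% interval -0.05 to 0.69) had an adjusted p of 0.219 in limma. The upper end of that interval is a log2 difference of 0.69, so the data do not show that the tissues are alike. In females the olfactory arrays lay above every respiratory array, and the difference of 0.46 (SE 0.25, adjusted p = 0.227 in limma) was not called. Within rats Cyp2a3 was higher in olfactory epithelium in 5 of 7, the exceptions being male rats 1 and 7 at -0.06 and -0.11.

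Cyp2f4 is the rat member of a subfamily known for activating naphthalene and styrene in airways. It gave 18976, 21007 and 25227 (lowest, median and highest) in male olfactory and 20951, 24225 and 33216 in male respiratory epithelium. Female arrays gave 23379 and 23958 in olfactory and 16637, 23580 and 25649 in respiratory epithelium. These ranges overlapped in both sexes. The differences were -0.20 (SE 0.17, 95% interval -0.56 to 0.16, adjusted p = 0.458 in limma) in males and 0.12 (adjusted p = 0.798) in females. Cyp2f4 and Cyp2a3 were also the steadiest members, with SDs within groups of 0.22 and 0.24 on the log2 scale, against 0.44 to 0.87 for the other 8. Their signals and those of Cyp2g1 reached 65.4% to 73.3% of the brightest probe set on an olfactory array, and whether array signals flatten at that height was not tested.

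Olfactory epithelium was also higher in Cyp2b21, Cyp3a9, Cyp2j4 and Cyp2e1, in both sexes, and their signals reached at most 42.7% of the brightest probe set on an array. Cyp2b21, an enzyme of the CYP2B subfamily, gave 4375, 6820 and 8850 (lowest, median and highest) in male olfactory and 397, 727 and 1595 in male respiratory epithelium. In females it gave 9549 and 8477 in olfactory and 675, 1513 and 3084 in respiratory epithelium. The lowest olfactory array was above the highest respiratory array in both sexes. With 3.03 (SE 0.36, 95% interval 2.27 to 3.78), or 8.14-fold, Cyp2b21 had the largest male difference of the 10 members (adjusted p = 1.29e-06 in limma), and the female difference was 2.53 (SE 0.51, adjusted p = 0.00147). All 7 rats with both tissues were higher in olfactory epithelium, by 2.29 to 3.91.

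Cyp3a9 belongs to the steroid-hydroxylating CYP3A subfamily. Male olfactory arrays gave signals of 8668, 10258 and 19665 (lowest, median and highest) and male respiratory arrays 1223, 2208 and 4854. Female arrays gave 15755 and 15407 in olfactory and 1296, 2823 and 11387 in respiratory epithelium. The 2 tissues did not overlap in either sex. The difference was 2.34 (SE 0.41, 5.05-fold, adjusted p = 0.000126 in limma) in males and 2.37 (adjusted p = 0.00577) in females. Female rat 8, whose respiratory signal was 11387, had a difference between her own tissues of 0.47, the smallest of 7 rats, against up to 3.48 in male rat 4.

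Cyp2j4, of a subfamily known to oxidise arachidonic acid, gave 3462, 4505 and 5819 (lowest, median and highest) in male olfactory and 790, 915 and 2231 in male respiratory epithelium. Females gave 4025 and 4024 in olfactory and 779, 1290 and 2662 in respiratory epithelium. No array of 1 tissue reached the range of the other. The male difference was 2.06 (SE 0.28, 4.17-fold, adjusted p = 5.55e-06 in limma), and the female difference 1.52 (adjusted p = 0.00881). It was positive in 7 of 7 rats, from 1.37 to 2.54.

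Cyp2e1, which oxidises ethanol and small solvents, gave 2872, 3396 and 5476 (lowest, median and highest) in male olfactory and 565, 1281 and 1660 in male respiratory epithelium. Its female signals were 5261 and 5218 in olfactory and 735, 1266 and 2362 in respiratory epithelium. The tissues were again apart in both sexes. The difference was 1.68 (SE 0.28, 3.20-fold, adjusted p = 7.21e-05 in limma) in males and 1.92 (adjusted p = 0.00152) in females, and it was positive in 7 of 7 rats, from 1.15 to 2.31.

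**Figure D3:**
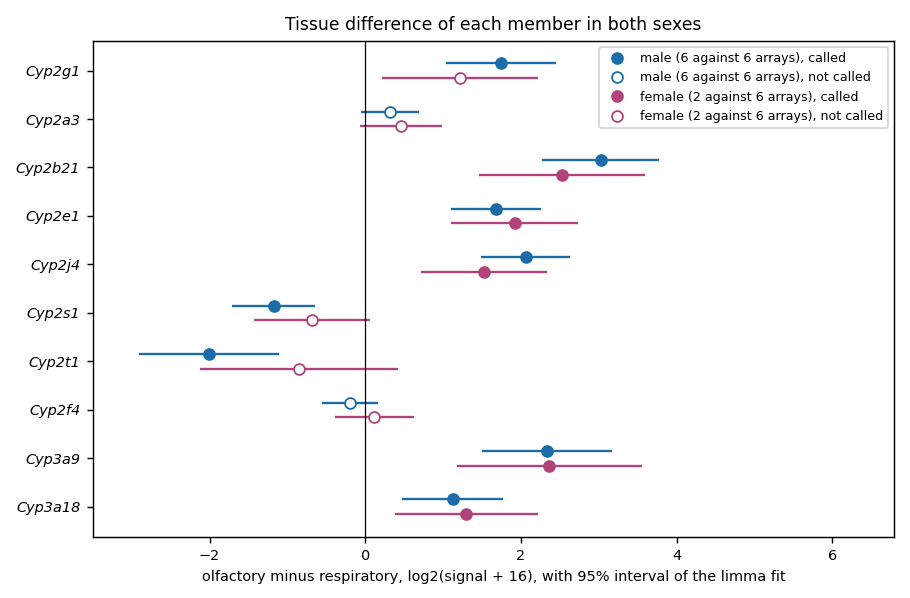
Olfactory minus respiratory difference in log2(signal + 16) of each member, with the 95% interval of limma's fit, in males (6 against 6 arrays) and females (2 against 6 arrays); filled points were called at an adjusted p under 0.05. In males 6 members lie above 0 and 2 below, and the 2 open points are Cyp2a3 and Cyp2f4; in females 5 are filled, all above 0.

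Cyp2s1 and Cyp2t1 went the other way in males. Cyp2s1 is an extrahepatic P450 of epithelia that dioxin-like compounds can induce. It gave 122, 190 and 328 (lowest, median and highest) in male olfactory and 330, 455 and 621 in male respiratory epithelium, and 211 and 285 in female olfactory against 208, 453 and 585 in female respiratory epithelium. The male ranges were only just apart, and the female ranges overlapped. It was lower by 1.18 in male olfactory epithelium (log2 difference -1.18, SE 0.26, 2.26-fold, adjusted p = 0.00122 in limma), and the female difference of -0.68 (adjusted p = 0.203) was not called. Every Cyp2s1 signal was at least 3.20 times its array's background.

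Cyp2t1, a CYP2 enzyme whose substrates are little known, was the least even member, with an SD within groups of 0.87. Its signals were 219, 574 and 1060 (lowest, median and highest) in male olfactory and 1101, 1741 and 5260 in male respiratory epithelium. In females they were 870 and 532 in olfactory and 418, 1487 and 2400 in respiratory epithelium. Male arrays of the 2 tissues did not overlap, and female arrays did. The male difference was -2.01 (SE 0.43, 4.03-fold lower, adjusted p = 0.00121 in limma), and the female difference -0.86 (adjusted p = 0.371). Both genes were lower in olfactory epithelium in 6 of 7 rats, and female rat 8 was the exception in both, with Cyp2s1 at 0.43 and Cyp2t1 at 0.34. In male olfactory epithelium both genes were lower in the rats of 11 weeks. Cyp2t1 gave 219, 297 and 370 at 11 weeks, and 820, 778 and 1060 at 13 or 14 weeks. Cyp2s1 gave 122 to 164 and 215 to 328. In male respiratory epithelium the ranges of these ages overlapped for both genes, and an effect of age was not tested.

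Cyp3a18, a CYP3A enzyme known from liver, was at or near the background. It was above the background on 2 of 6 male olfactory arrays, on 1 of 2 female olfactory arrays and on none of 12 respiratory arrays. Its signals were 17.7, 38.3 and 58.8 (lowest, median and highest) in male olfactory and 1.33, 4.97 and 46.8 in male respiratory epithelium, and 29.4 and 60.7 in female olfactory against 1.25, 6.67 and 29.0 in female respiratory epithelium. The male ranges overlapped, through the respiratory array of rat 7. The call in males (1.12, SE 0.31, adjusted p = 0.00986 in limma) therefore compares mostly values that do not stand out from the background, and no fold is given. With the rat as a fixed replicate block, over rats with both tissues, the male difference of Cyp3a18 was 0.96 (adjusted p = 0.0559) and no longer called, and over males of 11 weeks alone it was 0.97 (adjusted p = 0.0509).

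In females 5 members were called higher in olfactory epithelium (Cyp2b21, Cyp2e1, Cyp2j4, Cyp3a9 and Cyp3a18) and none lower, where 17.9% of all probe sets were called, 7.64% higher and 10.3% lower. Only 2 female olfactory arrays stand behind this. Without female olfactory array 6, or without female olfactory array 8, 2 of the 5 calls were left, and Cyp2j4 and Cyp3a9 were among those lost (adjusted p = 0.0602 to 0.0949). Within the pair of females that gave both tissues, with the rat as a fixed replicate block, 1 member was called, Cyp2b21. Cyp3a18 in females lost its call (adjusted p = 0.0457 with all arrays) without any 1 of 6 arrays: female olfactory 6 or 8, or female respiratory 3, 4, 6 or 9, with adjusted p from 0.0625 to 0.352.

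**Figure D4:**
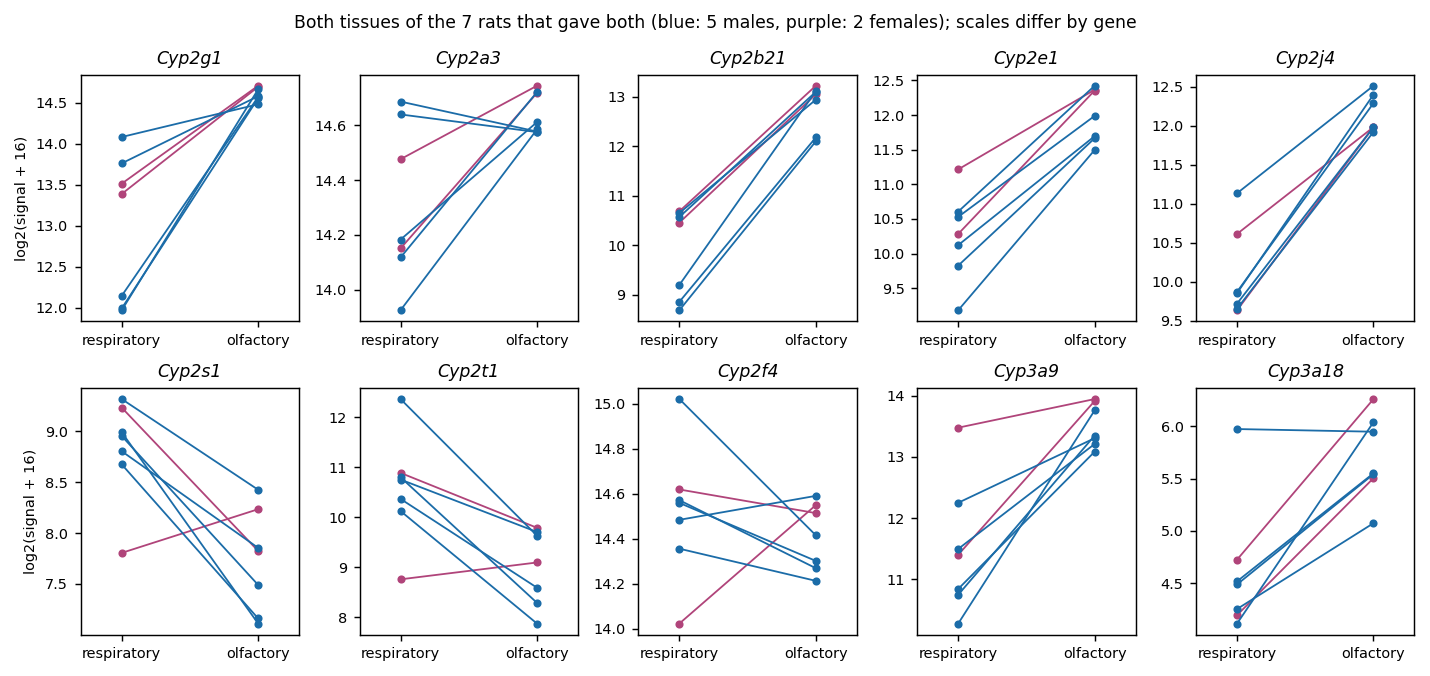
Both tissues of each of the 7 rats that gave both, as log2(signal + 16), 1 line per rat (blue for 5 males, purple for 2 females), with a scale of its own for each gene. The lines of Cyp2g1, Cyp2b21, Cyp2e1, Cyp2j4 and Cyp3a9 rise to the olfactory side in 7 of 7 rats, and those of Cyp2s1 and Cyp2t1 fall in 6 of 7.

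Sex made no difference that could be called in any member. Between female and male respiratory epithelium 0 of 10 members were called, where 0.0258% of all probe sets were. At an unadjusted p under 0.05 there was 1 member, Cyp2b21, higher in females by 0.98 (95% interval 0.23 to 1.73, unadjusted p = 0.0131, adjusted p = 1.00 in limma). Between the olfactory tissues, where 0.0419% of all probe sets were called, none of the 10 passed adjusted or unadjusted. The difference of the tissue differences between the sexes was called in 0 members and in 0% of all probe sets (1516 of them at an unadjusted p under 0.05, no member among these). For Cyp2t1 it was 1.15, with a 95% interval from -0.41 to 2.71, so these arrays leave room for a large difference between the sexes as well as for none. Age was not balanced between the sexes. Of 6 male olfactory arrays 3 came from rats of 11 weeks, and the 2 female ones from rats of 13 and 14 weeks. At 11 weeks there were 3 male respiratory arrays and 1 female. The part of age in these sex comparisons was not tested.

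The cell types of the samples moved with the tissue. All 7 measured olfactory neuron markers, Omp among them, were higher in male olfactory epithelium, with summed signals of 63922 to 73479 against 2394 to 12048 in male respiratory epithelium (76363 to 77000 against 3626 to 24958 in females). Of 6 sustentacular cell markers 3 were called higher and 3 lower in males, and their sums were 43889 to 68383 against 14688 to 28905 in males (56740 to 63311 against 15031 to 30823 in females). Cyp1a2 and Ugt2a1, which are described again below, are among these 6. Of 6 Bowman's gland markers 1 was higher and 2 lower, with sums of 16970 to 70334 against 68862 to 110134 (females 56857 to 69715 against 70738 to 131053). Markers of basal and squamous cells were lower in 7 of 7 (3563 to 12371 against 24810 to 76058; females 5630 to 11323 against 29959 to 51575) and those of leukocytes in 5 of 5 (2073 to 4711 against 9464 to 16484; females 3130 to 3222 against 5873 to 28849). Ciliated and goblet cell markers were lower in 4 of 9 (8794 to 21780 against 19252 to 43119; females 13659 to 20809 against 17298 to 37722) and those of connective tissue in 3 of 7 (15328 to 25604 against 24599 to 49757; females 14468 to 14617 against 17277 to 42730). Liver cell markers were called in 0 of 6 male tests (976 to 13188 against 1257 to 3197, females 2876 to 10587 against 800 to 1984). All counts so far are of male calls. In females 7 of 7 neuron markers were higher, 3 sustentacular markers were higher and 1 lower, and 1 Bowman's gland marker was higher and 0 lower. Lower in females were 3 of 7 basal and squamous, 3 of 5 leukocyte, 2 of 9 ciliated and goblet and 1 of 7 connective tissue markers. Of 6 liver cell markers 1 was higher in females. No marker was under background on all arrays. In such bulk samples fewer cells of a type and less RNA per cell cannot be told apart, and the part of cell composition in the tissue differences of the members was not tested.

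Olfactory neuron markers were also present on the respiratory arrays, in unequal amounts. Their mean log2 signal was 8.10 to 11.32 there, against 12.04 to 12.95 on olfactory arrays. Over the 12 respiratory arrays, 1 per rat, 3 members rose with it by Pearson's r, after adjustment over the 10 members. Cyp2b21 had r = 0.90 (permutation p = 5.00e-05, adjusted 0.000500) and Spearman's rho = 0.93 (permutation p = 4.00e-05, adjusted 0.000400). For Cyp2g1 the values were r = 0.87 (permutation p = 0.000220, adjusted 0.00110) and rho = 0.90 (permutation p = 0.000170, adjusted 0.000850). Cyp2j4 had r = 0.83 (permutation p = 0.00140, adjusted 0.00467), but rho = 0.60 (adjusted permutation p = 0.103).

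Leaving out the 2 arrays farthest from the median marker level, female respiratory 3 and 7, gave r = 0.82 for Cyp2g1 and 0.81 for Cyp2b21 (adjusted permutation p = 0.0212 for both) and r = 0.61 for Cyp2j4 (adjusted permutation p = 0.120), so Cyp2j4 did not pass without those arrays. Within males alone, r was 0.82 for Cyp2g1 and 0.80 for Cyp2b21 (exact permutation test, adjusted p = 0.0278 and 0.0139, n = 6). Within females alone, r was 0.96 and 0.92 (exact permutation test, adjusted p = 0.0278 and 0.0694, n = 6). Cyp2j4 had r = 0.90 in males and 0.78 in females, with adjusted p of 0.125 and 0.188 in the exact permutation test (n = 6 each). Cyp3a9 had r = 0.59 (adjusted permutation p = 0.0926) and rho = 0.71 (adjusted permutation p = 0.0414), Cyp2a3 r = 0.59 (adjusted permutation p = 0.0926), and the other 5 members r between -0.27 and 0.44. With Omp alone as the marker, Cyp2a3 passed (r = 0.67, adjusted permutation p = 0.0472) and Cyp3a9 did not (r = 0.51, adjusted permutation p = 0.185). Without respiratory arrays female 8 and male 7, left out after seeing the data, both passed by r. Cyp3a9 had r = 0.83 and Cyp2a3 r = 0.74 (adjusted permutation p = 0.0122 and 0.0320). Neither passed by rho there (adjusted permutation p = 0.0601 and 0.0574). On male respiratory array 2, with the lowest mean marker level, Cyp2g1 gave a signal of 4060 and Cyp2a3 one of 15535, 70.0 and 268 times that array's background. That array was not free of neuron markers. Its mean log2 marker level was 8.10, and its Omp log2 signal was 10.10, against 9.70 on male respiratory array 3.

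**Figure D5:**
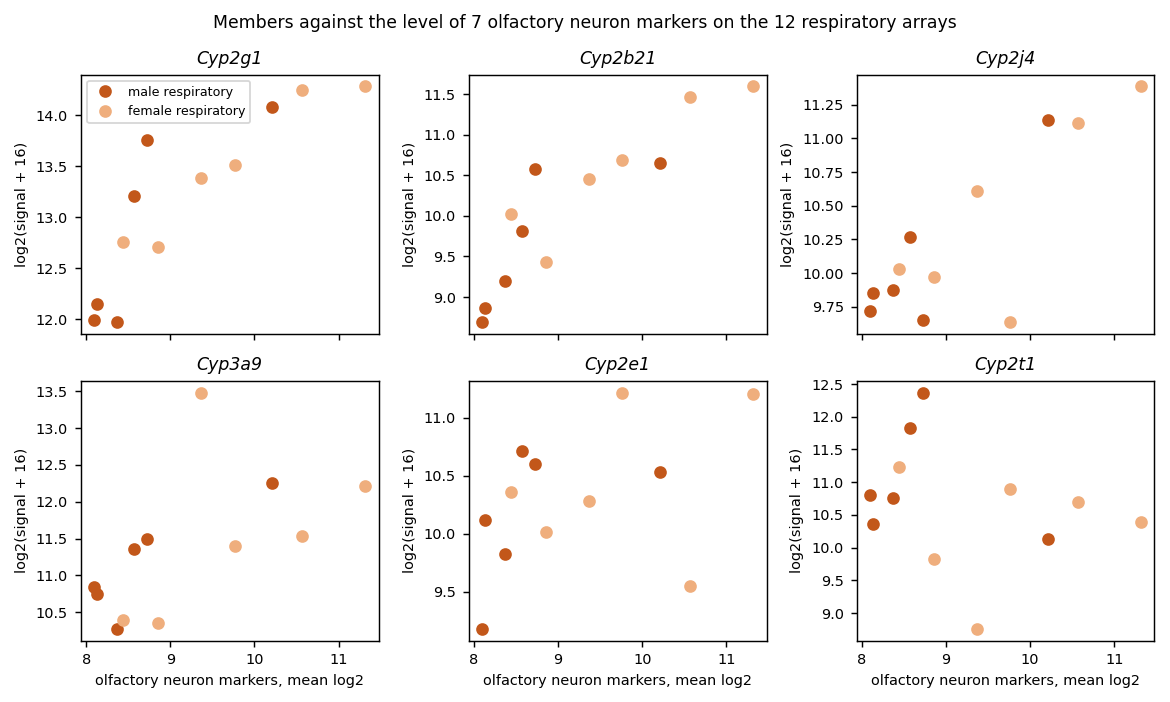
log2(signal + 16) of 6 members against the mean log2 signal of 7 olfactory neuron markers on the 12 respiratory arrays, males dark and females light. Cyp2g1 and Cyp2b21 rise from left to right in both sexes (r = 0.87 and 0.90 over all 12), Cyp2j4 is highest on the 3 arrays at the far right, and Cyp2t1 shows no such rise (r = -0.27).

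A pair of respiratory arrays, female 8 and male 7, stood apart from the other 10 on the second principal component of all probe sets (-113.3 and -97.5, against -5.4 to 32.6). These arrays hold the highest respiratory signals of Cyp3a9 (female 8, 11387) and of Cyp2t1 and Cyp3a18 (male 7, 5260 and 46.8). Male 7 was also highest in Cyp2a3 (26348), Cyp2f4 (33216) and Cyp2s1 (621). Female 8 was the lowest respiratory array in Cyp2s1 (208), Cyp2t1 (418) and Cyp2f4 (16637). The differences within female rat 8 and male rat 7 given above for these genes rest on these arrays. Why they stand apart was not tested. Without both of them the 8 male calls held, with differences of 2.40 for Cyp3a9, -1.75 for Cyp2t1, -1.09 for Cyp2s1 and 3.21 for Cyp2b21. In females Cyp2s1 was then called lower, at -0.87 (SE 0.31, adjusted p = 0.0437 in limma).

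RNA integrity moved with the tissue too. The integrity number was 8.2 to 8.8 on 5 male olfactory and 9.1 to 9.3 on 4 male respiratory arrays, and 8.3 on both female olfactory against 8.7 to 9.3 on 6 female respiratory arrays. With it as a covariate, over the arrays that have one, 3 members kept their male call, Cyp2b21 (2.43, adjusted p = 0.00676), Cyp2g1 (1.77, adjusted p = 0.0370) and Cyp2j4 (1.90, adjusted p = 0.0172). On the same arrays without the covariate these differences were 3.42, 2.26 and 2.19. Cyp2e1 (0.95, adjusted p = 0.235), Cyp3a9 (1.21, adjusted p = 0.287), Cyp2s1 (-1.33, adjusted p = 0.116) and Cyp2t1 (-1.88, adjusted p = 0.161) lost their male calls with the covariate. Cyp3a18 and all 5 female calls were lost too. Without it the differences of Cyp2e1, Cyp3a9, Cyp2s1 and Cyp2t1 were 1.92, 2.64, -1.15 and -2.04. With it the SE rose from 0.30 to 0.49 for Cyp2s1 and from 0.47 to 0.77 for Cyp2t1. Over all 31042 probe sets, male calls fell from 7203 to 2347 and female calls from 6235 to 1133. As integrity and tissue do not overlap within a sex, their parts in these differences cannot be told apart there.

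Other genes of P450 function moved in both directions. Of 22 other measured CYP1 to CYP3 genes, 2 were higher in male olfactory epithelium and none lower: Cyp1a2 by 3.35 (SE 0.42, adjusted p = 2.33e-06 in limma) and Cyp1a1 by 1.90 (SE 0.32), both enzymes that oxidise flat aromatic compounds. The median of the 22 was -0.01, but 4 of them were at or under the background on all 20 arrays, so it includes genes with little or no signal. In females Cyp1a1 and Cyp1a2 were also higher, and Cyp1b1 (-0.89, adjusted p = 0.0478 in limma) and Cyp2j10 (-1.20, adjusted p = 0.0485) were lower. Among 7 genes of electron supply, Por, the reductase that feeds all these enzymes, was higher by 1.05 (SE 0.31, adjusted p = 0.0142) and the b5 form Cyb5b was lower (-0.72). The microsomal b5, Cyb5a, gave 0.58 and was not called (adjusted p = 0.0726).

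Of 12 genes of heme synthesis and breakdown, Blvrb (1.62) and Ppox (1.20) were higher, and Alas2 (-2.24), Blvra (-1.31), Fech (-1.15) and Cpox (-0.84) were lower in male olfactory epithelium. Ppox, Fech and Cpox make heme, Alas2 starts its synthesis in red cells, and Blvra and Blvrb reduce biliverdin. Among 18 regulators of P450 genes, 0 were higher and 8 lower, with a median of -0.72 against -0.04 over all probe sets. The largest changes were those of Foxa1 (-1.98), the dioxin receptor Ahr (-1.50), its partner Arnt (-1.45) and Foxa3 (-1.26), and the nuclear factor I genes Nfix (-0.95) and Nfia (-0.89) were also lower. Of 12 enzymes that act on P450 products, 4 were higher (Ugt2a1 by 2.80, Gsta1 by 1.37, Sult1a1 by 1.03 and Gstm1 by 0.55) and 4 lower (Aldh3a1 at -3.67, Aldh1a1 at -1.61, Gstp1 at -1.26 and Nqo1 at -0.997).

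For each member the 3 named genes most like it in log2 signal over all 20 arrays were taken by Pearson's r, as a description: the arrays share tissue and scaling, which by themselves give high values. Cyp2g1 was closest to Muc2 (0.96), Cyp1a2 (0.95) and Bpifb4 (0.95), and Cyp2b21 to Cyp1a2, Omp and Nxnl2 (0.97 each). Cyp3a9 was closest to Sult1d1 and Ugt2a1 (0.97 each) and Ermn (0.96), and Cyp2j4 to Pla2r1, Scn9a and Nol4 (0.97 each). For Cyp2e1 they were Car7 (0.92), Upk1a and Pdzd4 (0.91 each), and for Cyp2a3 Crym and Tsku (0.90 each) and Snx21 (0.88). The members that were lower in olfactory epithelium had other neighbours: Cyp2s1 Itgb4, Arhgef16 and Fam117a (0.92 each), and Cyp2t1 Bckdk and Rab3d (0.95 each) and Dgcr2 (0.94). Cyp2f4 was closest to Kctd15 (0.91), Plch2 and Nlrx1 (0.86 each), and Cyp3a18, mostly under background, to Bok, Saraf and Urgcp (0.91 each).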

How the data were processed

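RNA of 20 nasal samples was measured on 1 Rat230_2 array each, after Trizol and Qiagen extraction and biotin labelling, per the labels. The deposited values are linear intensities, 1 for each probe set. GCOS 1.0, the array maker's software, is named in the submitters' processing notes, with no algorithm or scaling target given in the sources used here. The mean after trimming 2% at each end was 500.1 to 500.3 on every array, so the authors scaled the arrays to a common level. Precision is limited by how many arrays there are.

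Of 31099 probe sets, 57 controls were left out. A constant of 16 was added before the log2. In R 4.3.3, limma 3.58.1 estimated 4 group means over 20 arrays, with variances that follow intensity, and every adjusted p is its two-sided p after Benjamini-Hochberg adjustment over 31042 probe sets, called under 0.05, unless named as a permutation p. Permutation p used 100000 resamples or, within a sex, all orders. The code was tested on simulated data. Gene names come from GEO's platform annotation, and sequences and gene order from RefSeq, build GRCr8.

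Arrays with the same sex and number come from 1 rat, per the labels, so the numbers pair the samples. Deviations from group means correlated by -0.18 to 0.25 within rats. Alternatives were other pseudocounts, a filter on low signal, quantile normalization, no variance trend, the rat as a block, RNA integrity, age, and single arrays left out. Leaving out the pair of arrays that stand apart, and the arrays without an integrity number, was chosen after seeing the data. The members and lists were chosen with earlier results of these data known. All members are named. Of a list of P450-related genes, those called in males are named where there are 6 or fewer, otherwise the 4 largest per direction, with Por and Cyb5a. Cell type markers are given as counts and sums, with only Omp named there as a neuron marker. Cyp1a2, Ugt2a1 and Ermn were also in the sustentacular list, and Bpifb4 in the Bowman's gland list. What is said of these genes elsewhere is therefore not independent of the list results. Nfia and Nfix were named after their values were seen.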

Additional observations from a re-analysis of the deposited data

Results flagged for a closer look

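In male respiratory epithelium the Cyp3a18 signal of rat 7, 46.8, lay far from those of the other 5 rats. Its gap to the next array was 0.783 of the whole range in log2(signal + 16), above the critical value of 0.625 for 6 arrays. Of 30 sets of arrays looked at in this way (10 members in 3 groups of 6) this was the only such case, and chance gives about 1 in 20.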

How the results depend on the processing

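The 8 male calls (6 higher, 2 lower) stayed 8, 6 and 2 with each single array left out, and the 5 female calls, all higher, became 2 to 5. With RNA integrity as a covariate 3 male calls were left (3 higher, 0 lower) and 0 female calls (0 higher). On the same arrays this covariate cut the calls over all probe sets from 7203 to 2347 in males and from 6235 to 1133 in females. With the rat as a fixed replicate block 1 female call was left (1 higher), while with the rat as a random replicate block the pairing changed no call of a member. The count of females called lower became 1 without the pair of arrays that stand apart. The count of members that rise with neuron markers was 3 over all respiratory arrays and 1 within females. It was 5, with Cyp2a3 and Cyp3a9 added, without the pair that stands apart. No called difference reversed, and 920 of 950 recomputed member values kept their side of the threshold. The 950 include sex differences and differences of tissue differences, which were called under no setting. All 30 changes were in tissue differences, most of them in females. Cyp3a18 in females lost its call in 10 of 19 alternatives. The cause of these changes was not tested. Female values rest on 2 olfactory arrays, and Cyp3a18 was above background on 3 of 20 arrays.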
